A study of Homo sapiens with 12 samples.

Results

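A set of 10 genes that make, break down and relay cyclic AMP (cAMP) was followed across the 4 groups of the series. They were taken from the deposited count table by symbol: the adenylyl cyclase genes ADCY1, ADCY3, ADCY6, ADCY7 and ADCY9, the cAMP phosphodiesterase genes PDE4A, PDE4B and PDE4D, the receptor gene MC1R and the transcription factor gene CREB1. All 10 symbols were found among the 56609 in the table, and all 10 passed the filter on low counts that left 21698 genes for testing. ADCY7 was chosen by a measured value, the difference between its JQ1 responses in the 2 genotypes in these same libraries, so its values are given here as a description, without a p-value. Counts of genes that passed a test therefore cover the 9 other genes.

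The cells were A375, an established human melanoma line. Wild-type A375 cells, and A375 cells in which MAPKAPK2 had been knocked out with CRISPR/Cas9, received JQ1 at 500 nM or the control DMSO over 48 h, in 3 replicates per group. MAPKAPK2 encodes the stress-activated kinase MK2, and JQ1 is a small molecule that displaces BET bromodomain proteins from acetylated chromatin; the study asked how loss of the kinase affects resistance to such inhibitors. RNA was depleted of ribosomal RNA and sequenced from directional libraries. The labels do not say whether the knockout cells are a single clone or a mixed population, nor whether replicates were separate cultures, so the p-values measure the spread between these samples, which may be technical. The sample titles name the DMSO groups as untreated.

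Cyclic AMP is a second messenger. In melanocytes and melanoma cells the melanocortin receptor MC1R activates the stimulatory G protein, which switches on membrane adenylyl cyclases; the cAMP they make releases the catalytic subunits of protein kinase A, which phosphorylate CREB1, and CREB1 binds cAMP response elements in genes such as MITF, the lineage transcription factor. Phosphodiesterases of the PDE4 family end the signal by hydrolysing cAMP. ADCY1 is stimulated by calcium and calmodulin, ADCY6 is inhibited by calcium, ADCY7 is a cyclase whose activity is raised by G protein beta-gamma subunits, and ADCY9 is only weakly sensitive to the plant compound forskolin.

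The 12 libraries held 25316565 to 34594025 estimated counts. The knocked-out gene itself fell but did not vanish: MAPKAPK2 (chr1:206684944-206734283, plus strand) stood at 89.6 ± 2.2 counts per 1000000 counts of the library (CPM) with DMSO and 117 ± 4.31 with JQ1 in wild-type cells, and at 12.4 ± 1.15 and 14.4 ± 1.61 in the knockout (SD, n = 3 each, as for every group mean here). The library size was adjusted by TMM, so CPM compare a gene across libraries. Replicate 3 of the knockout JQ1 group stood apart: its counts differed from its group mates by 27.9 and 29.5 chi-square units per degree of freedom, against 3.5 to 8.04 for the other replicate pairs, and 4 abundant noncoding RNAs (RN7SK, RN7SL1, RN7SL2 and RMRP) took 14.6% of its counts, the highest share of the 12 libraries, whose lowest was 9.42%. Calls of the 9 tested genes that change without it are given both ways, as are the call totals of the wider pathway list. Counts for single classes of that list are given with all 12 libraries only. Of 8 melanocyte lineage markers, 5 passed the filter on low counts; their summed level was 501 to 516 CPM with DMSO and 587 to 677 with JQ1 in wild-type libraries, and 460 to 535 with DMSO and 560 to 766 with JQ1 in knockout libraries. Most of that sum was SOX10, at 437 ± 7.38 CPM in wild-type DMSO cells, with MITF at 43.1 ± 1.01, while the pigment genes PMEL and MLANA averaged at most 1.18 CPM in any group and TYR, DCT and TYRP1 were too low to test. The sum hides differences between genotypes. In the knockout MITF was lower with DMSO (log2 -0.58, edgeR quasi-likelihood test, adjusted p = 0.000323) and JQ1 (-0.37, adjusted p = 0.0102). S100B was higher with DMSO (0.45, adjusted p = 0.000403) and JQ1 (0.41, adjusted p = 0.000756). The 3 other tested markers did not pass in either treatment. The defining markers of other cell types were low, with sums of at most 7.12 CPM for 4 keratinocyte genes and 1.52 for 4 blood cell genes. The sum of 5 fibroblast genes was 12.8 to 17.4 CPM in DMSO and 3.29 to 5.75 in JQ1 libraries, and most of it with DMSO was PDGFRB and LUM. Of 4 fibroblast genes tested, 4 passed lower with JQ1 in wild-type cells and 2, PDGFRB and LUM, in the knockout. Among all tested genes 16.2% and 17.8% passed lower. The part of the fibroblast genes in the results was not tested.

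The 2 promoter sequences below are shown because they belong to the cyclase and the PDE4 gene that, among the 10 genes, changed most with JQ1. They are from RefSeq (GRCh38.p14), run 5′ to 3′ on the coding strand from 100 bases before to 20 after an annotated start, and capitals mark matches to the cAMP response element TGACGTCA or to its shorter core TGACG on either strand.
ADCY7 (chr16:50266451-50266570, plus strand): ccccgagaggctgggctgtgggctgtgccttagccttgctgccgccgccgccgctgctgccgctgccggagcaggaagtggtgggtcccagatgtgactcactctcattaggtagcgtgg
PDE4A (chr19:10416673-10416792, plus strand): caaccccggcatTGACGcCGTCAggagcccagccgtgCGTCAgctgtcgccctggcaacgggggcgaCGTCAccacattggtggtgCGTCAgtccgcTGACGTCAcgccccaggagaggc
The PDE4A window held 1 full element, which spans the annotated start, and 7 matches to the core, of which 2 lie inside the full element. The ADCY7 window held neither. PDE4A had 5 promoter entries, and only the entry shown held the element or the core. ADCY7 had 1 entry, which lies inside the span of the gene, so starts further upstream are not covered. RefSeq gave 26 promoters, each of 300 bases, for 8 of the 10 genes (ADCY6 and ADCY9 had no entry); 1 of the 26 held the full element and 5, from 4 genes, held the core. Among all 35116 RefSeq promoters of that length the full element was in 1.85% and the core in 24.6%. A match is a description of the letters, not evidence that a factor binds there.

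Among the cyclases, ADCY7 mRNA fell most with JQ1, and it fell further in the knockout cells. ADCY7 lies on chromosome 16 (chr16:50246137-50318135, plus strand, GENCODE 29, GRCh38). Its level was 25.0, 24.6 and 25.4 CPM in the wild-type DMSO libraries and 9.17, 8.42 and 8.31 in the wild-type JQ1 libraries. In the knockout it was 27.4, 29.8 and 29.3 CPM with DMSO and 5.6, 6.05 and 5.95 with JQ1. The 4 groups did not overlap, with knockout DMSO highest and knockout JQ1 lowest. On the log2 scale JQ1 lowered ADCY7 by a difference of -1.53 (SE 0.08, 2.89-fold) in wild-type and -2.3 (SE 0.08, 4.91-fold) in knockout cells. The knockout level exceeded the wild-type level by 0.20 (SE 0.07) with DMSO and lay below it, at -0.56 (SE 0.08, 1.47-fold lower), with JQ1. The difference between the JQ1 responses, knockout minus wild type, was -0.76 (SE 0.11, approximate 95% interval -0.98 to -0.55); this is the value by which the gene was chosen. Over 21698 genes, 29 passed an adjusted p of 0.05 for that difference in edgeR's quasi-likelihood test, 0.134% of them, and nothing is read from ADCY7 being among them. In bulk RNA a lower level in every cell cannot be told apart from fewer cells with the transcript.

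The ADCY7 values rested on 147 to 924 counts per library and moved little with the processing: over 19 alternatives the log2 response ran from -1.66 to -1.5 in wild-type cells, from -2.41 to -2.26 in knockout cells, and, over the 18 alternatives that give one, their difference from -0.8 to -0.72. BRD7 lies on the opposite strand and shares 3593 exonic bases with ADCY7, 41.6% of the merged ADCY7 exons, and whether counting used the strand is not given in the sources used here. BRD7 stood at 71.9 ± 2.65 CPM in wild-type DMSO and 64.8 ± 1.44 in wild-type JQ1 cells, and at 75 ± 1.88 and 69.2 ± 4.32 in the knockout pair. Its log2 JQ1 differences were -0.15 (edgeR, adjusted p = 0.0654) and -0.12 (adjusted p = 0.146), and their difference was 0.03 (SE 0.08). Whether BRD7 reads entered the ADCY7 counts was not tested. BRD7 and the other overlapping genes below were picked after values were seen, as those sharing at least 5% of a member's exons.

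**Figure D1:**
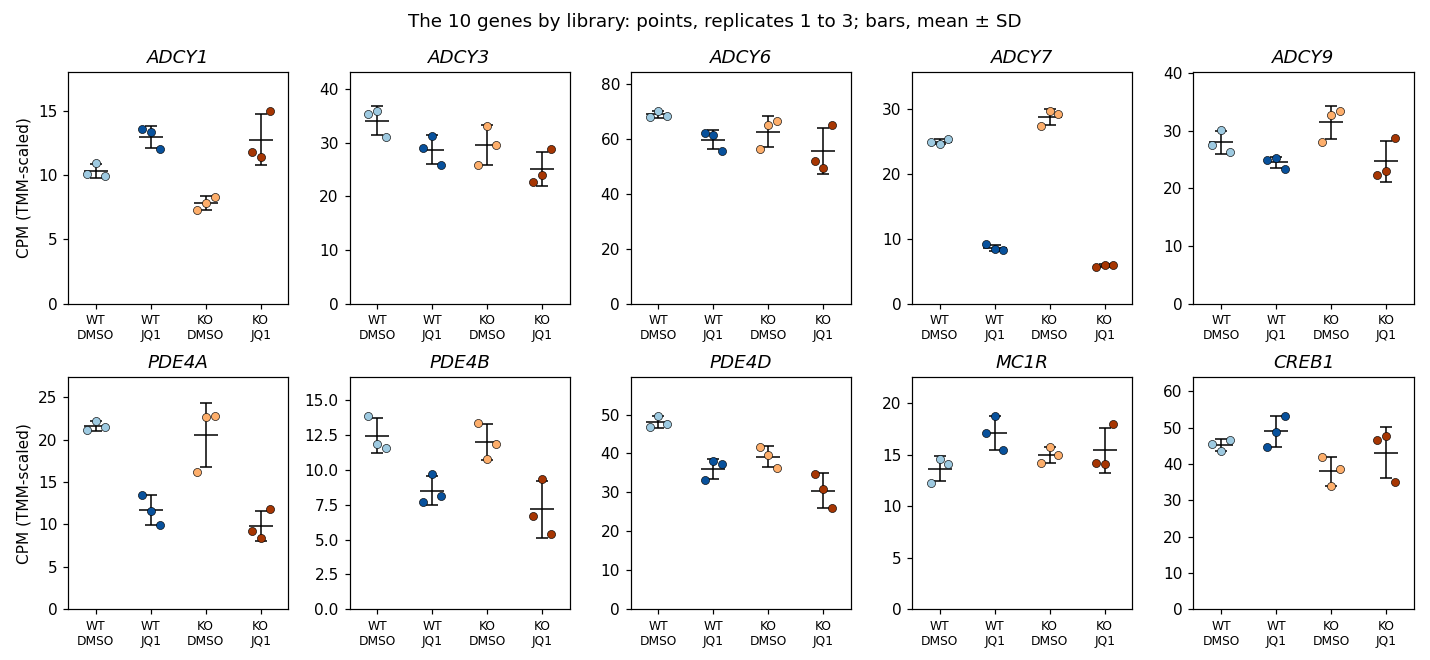
Level of each of the 10 genes in the 12 libraries, in CPM, for wild-type (WT) and knockout (KO) cells with DMSO or JQ1; points are replicates 1 to 3 and bars the mean ± SD of a group. ADCY7 is the gene whose 4 groups lie fully apart, from 5.6 CPM in a knockout JQ1 library to 29.8 in a knockout DMSO library, while the PDE4A points fall with JQ1 in both genotypes.

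The remaining cyclases moved less, and in both directions. ADCY1, the calcium-stimulated cyclase best known from neurons, was measured at 10.1, 10.9 and 9.92 CPM in wild-type DMSO and 13.6, 13.3 and 12 in wild-type JQ1 libraries. In the knockout its values were 7.25, 7.83 and 8.32 CPM with DMSO and 11.8, 11.4 and 15 with JQ1. Within each genotype every JQ1 library was above every DMSO library, and the knockout DMSO libraries were the lowest of the 12. ADCY1 rose 1.26-fold in wild-type (log2 0.33, SE 0.11; edgeR quasi-likelihood test, adjusted p = 0.031) and 1.64-fold in knockout cells (log2 0.71, SE 0.11; edgeR, adjusted p = 0.000181). The wild-type call was lost with library totals as the only scaling (adjusted p = 0.149), with limma on the authors' normalized signal (0.0765), and without replicate 1 (0.0769) or 3 (0.0894) of the wild-type DMSO group or replicate 1 (0.105) or 2 (0.0881) of the wild-type JQ1 group; the knockout call held in all 19 alternatives. The difference between the ADCY1 responses was 0.38 (SE 0.16), 0.24 (SE 0.13) without knockout JQ1 replicate 3, the library with the value of 15, and 0.58 (SE 0.22) with limma on the authors' signal; it was not tested because the genes were chosen with that contrast in view.

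ADCY9 is a broadly expressed cyclase. Its values were 27.5, 30.1 and 26.3 CPM with DMSO and 24.9, 25.2 and 23.4 with JQ1 in wild-type libraries, and 28.1, 32.7 and 33.5 with DMSO and 22.3, 23.1 and 28.8 with JQ1 in knockout libraries. The wild-type groups did not overlap. The knockout ranges overlapped through knockout JQ1 replicate 3 and knockout DMSO replicate 1. ADCY9 fell 1.27-fold with JQ1 in knockout cells (log2 -0.34, SE 0.1; edgeR, adjusted p = 0.0157), while the wild-type difference of -0.19 (SE 0.1) did not pass (adjusted p = 0.167). The knockout call was lost without knockout DMSO replicate 3 (adjusted p = 0.0634), knockout JQ1 replicate 1 (0.0709) or knockout JQ1 replicate 2 (0.0656); without knockout JQ1 replicate 3 the difference was -0.47 (adjusted p = 0.000562). With library totals alone the wild-type difference of ADCY9 was -0.32 (adjusted p = 0.0188). The difference between the ADCY9 responses, not tested, was -0.15 (SE 0.14, approximate 95% interval -0.43 to 0.13).

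ADCY3 and ADCY6, the cyclases with the highest levels per length, showed small differences that did not pass the test. ADCY6 was measured at 67.9, 70.2 and 68.3 CPM with DMSO and 62, 61.3 and 55.6 with JQ1 in wild-type libraries, and 56.3, 65 and 66.4 with DMSO and 51.7, 49.5 and 65.1 with JQ1 in knockout libraries. The wild-type groups did not overlap and the knockout groups did. The log2 differences of ADCY6 with JQ1 were -0.21 (SE 0.09; edgeR, adjusted p = 0.109) and -0.17 (SE 0.09; adjusted p = 0.185). Those of ADCY3, whose group means ran from 34.1 ± 2.73 CPM in wild-type DMSO to 25.1 ± 3.22 in knockout JQ1 cells, were -0.25 (SE 0.11; adjusted p = 0.101) and -0.23 (SE 0.11; adjusted p = 0.128). Both genes passed in the knockout without knockout JQ1 replicate 3 (ADCY6 -0.3, edgeR adjusted p = 0.00427; ADCY3 -0.34, adjusted p = 0.0222), and in wild-type cells as well (ADCY6 adjusted p = 0.0184, ADCY3 0.0458); they also passed with library totals alone in wild-type (ADCY6 adjusted p = 0.00805, ADCY3 0.0127) and knockout cells (ADCY6 0.0184, ADCY3 0.0206), and in wild-type cells with only the compared groups in the fit (ADCY6 0.00774, ADCY3 0.0267). ADCY3 also passed in the knockout without knockout DMSO replicate 1 (adjusted p = 0.0436). ADCY3 shares 24.6% of its exons with CENPO on the opposite strand, whose log2 JQ1 differences were 0.17 (adjusted p = 0.0701) and 0.37 (adjusted p = 0.000715), opposite in sign to those of ADCY3.

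Put on a per-length scale, the 5 cyclases can be set against each other. Dividing CPM by kilobases of merged exon, ADCY7 made up 14.4 ± 0.731% of the summed cyclase level in wild-type DMSO cells and 17.4 ± 0.769% in knockout DMSO cells. With JQ1 its share was 6.21 ± 0.35% in wild-type and 4.66 ± 0.568% in knockout cells. ADCY6 held the largest share in every group, 40.6 ± 1.01% in wild-type DMSO and 44.7 ± 1.19% in knockout JQ1 cells, followed by ADCY3 at 25.3% to 29.4%. ADCY1 held 3.7 ± 0.0826% and 2.94 ± 0.136% with DMSO and 5.82 ± 0.098% and 6.25 ± 0.155% with JQ1, so that with JQ1 its share in the knockout lay above that of ADCY7. That order depends on the length used. Per kilobase of the longest coding transcript, knockout JQ1 levels were 1.02 ± 0.158 CPM for ADCY1 and 0.944 ± 0.038 for ADCY7, within their spread. The summed level of the 5 genes was 20.2 ± 0.699 CPM per kilobase with DMSO and 16.1 ± 1.01 with JQ1 in wild-type cells, and 19.3 ± 1.65 with DMSO and 14.7 ± 2.01 with JQ1 in knockout cells. Because shares sum to a whole, a lower ADCY7 share raises the others, and mRNA shares say nothing of enzyme activity.

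**Figure D2:**
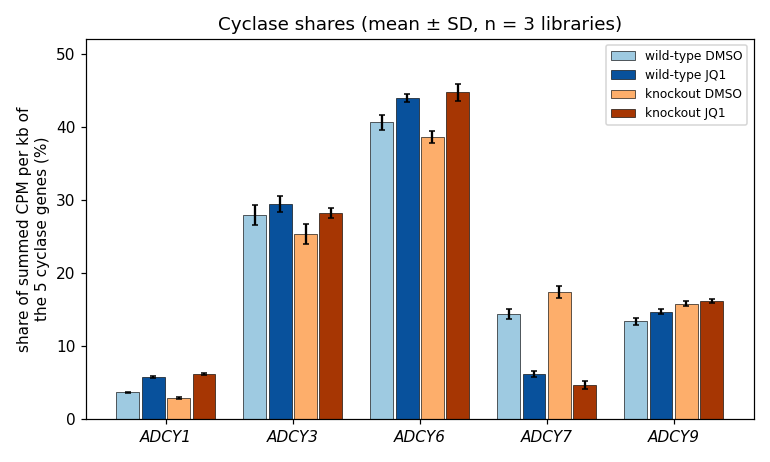
Share of each cyclase gene in the summed level of the 5 cyclases, in percent of CPM per kilobase of merged exon, as group means with SD (n = 3 libraries per group). The ADCY7 bar drops from 14.4% to 6.21% with JQ1 in wild-type cells and from 17.4% to 4.66% in the knockout.

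All 3 PDE4 genes fell with JQ1 in both genotypes. PDE4A encodes a cAMP-specific phosphodiesterase (chr19:10416773-10469631, plus strand). Its values were 21.1, 22.2 and 21.5 CPM in wild-type DMSO and 13.5, 11.6 and 9.97 in wild-type JQ1 libraries, and 16.2, 22.7 and 22.8 with DMSO against 9.25, 8.36 and 11.8 with JQ1 in the knockout. No JQ1 library reached the lowest DMSO library. PDE4A fell 1.85-fold in wild-type (log2 -0.88, SE 0.15; edgeR, adjusted p = 0.000321) and 2.09-fold in knockout cells (log2 -1.06, SE 0.15; edgeR, adjusted p = 7.02e-05). Both calls held in all 19 alternatives, as did those of PDE4D.

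PDE4D spans a long locus on chromosome 5 (chr5:58969038-60522120, minus strand) and encodes many isoforms that differ in where they sit in the cell. It was measured at 46.9, 49.7 and 47.7 CPM with DMSO and 33.2, 38 and 37.2 with JQ1 in wild-type libraries, and 41.7, 39.6 and 36.3 with DMSO and 34.7, 30.8 and 25.9 with JQ1 in knockout libraries. The groups did not overlap within a genotype. PDE4D fell 1.33-fold in wild-type (log2 -0.41, SE 0.09; edgeR, adjusted p = 0.00319) and 1.29-fold in knockout cells (log2 -0.37, SE 0.09; edgeR, adjusted p = 0.00754). Symbol-level counts do not separate its isoforms.

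PDE4B, the family member best known from inflammatory cells, is on chromosome 1 (chr1:65792514-66374579, plus strand). Its values were 13.9, 11.9 and 11.6 CPM with DMSO and 7.69, 9.72 and 8.14 with JQ1 in wild-type libraries, and 13.4, 10.8 and 11.9 with DMSO and 6.7, 9.37 and 5.41 with JQ1 in knockout libraries. Again no JQ1 library overlapped the DMSO libraries of its genotype. PDE4B fell 1.47-fold in wild-type (log2 -0.55, SE 0.16; edgeR, adjusted p = 0.0163) and 1.69-fold in knockout cells (log2 -0.76, SE 0.17; edgeR, adjusted p = 0.00245). The wild-type call was lost without replicate 1 of the wild-type DMSO group (adjusted p = 0.0795) or replicate 1 (0.0732) or 3 (0.055) of the wild-type JQ1 group; the knockout call held in all 19 alternatives. The differences between the JQ1 responses of the genotypes, given without a test, were -0.18 (SE 0.21) for PDE4A, -0.2 (SE 0.23) for PDE4B and 0.05 (SE 0.13) for PDE4D, with approximate 95% intervals of -0.59 to 0.24, -0.66 to 0.25 and -0.21 to 0.31.

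**Figure D3:**
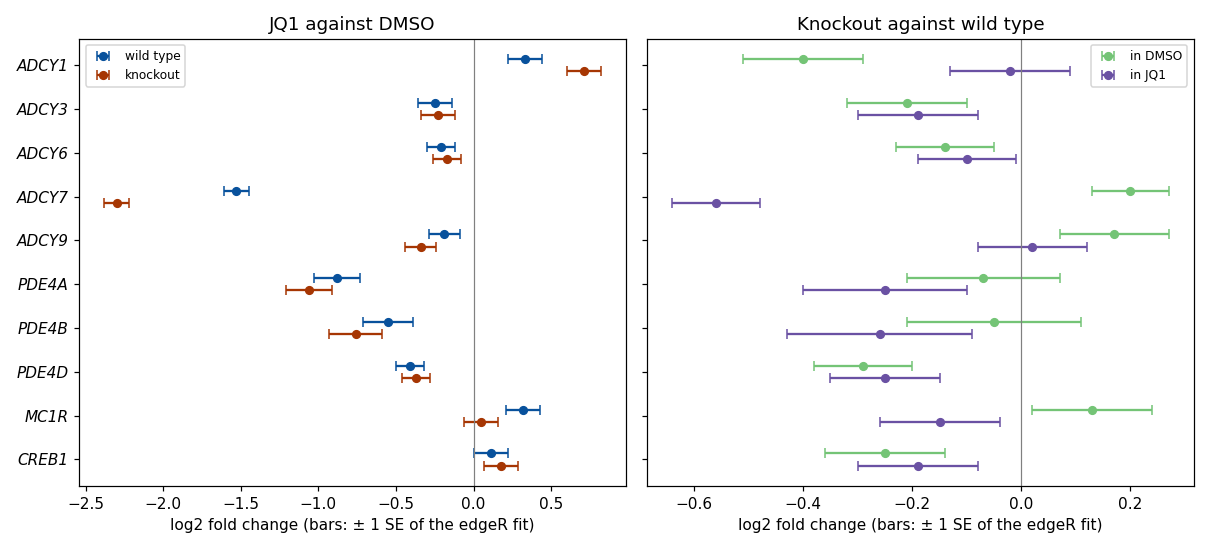
Log2 fold change of each gene for JQ1 against DMSO in each genotype (left) and for knockout against wild type in each treatment (right), with bars of 1 SE of the edgeR fit and different scales. On the left the PDE4 genes lie below 0 in both genotypes, ADCY1 lies above 0 in both, and ADCY7 is lowest, at -1.53 and -2.3.

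MC1R, the receptor at the head of the pathway, rose in wild-type cells and did not pass in the knockout, and the difference between the genotypes was not tested. Its level was 12.3, 14.6 and 14.1 CPM with DMSO and 17.1, 18.8 and 15.5 with JQ1 in wild-type libraries, and 14.2, 15.8 and 15 with DMSO and 14.2, 14.1 and 18 with JQ1 in knockout libraries. The wild-type groups did not overlap, and in the knockout the highest JQ1 value came from replicate 3. MC1R rose 1.25-fold with JQ1 in wild-type cells (log2 0.32, SE 0.11; edgeR, adjusted p = 0.0355); in the knockout the difference was 0.05 (SE 0.11; adjusted p = 0.802) and, without knockout JQ1 replicate 3, -0.08 (adjusted p = 0.605). The difference between the MC1R responses was -0.28 (SE 0.16, approximate 95% interval -0.59 to 0.03). The wild-type call was lost with library totals alone (adjusted p = 0.165) and without replicate 1 (0.132) or 3 (0.0555) of the wild-type DMSO group or replicate 1 (0.0822) or 2 (0.149) of the wild-type JQ1 group. MC1R lies on chromosome 16 (chr16:89912119-89920977, plus strand) among overlapping genes: TCF25, on the same strand with 9.83% of the MC1R exons, rose with JQ1 by 0.53 in wild-type (adjusted p = 0.000547) and 0.47 in knockout cells (adjusted p = 0.00127), and AC092143.2, on the opposite strand, rose by 0.54 in wild-type cells (adjusted p = 0.0323) and stood at -0.09 in the knockout (adjusted p = 0.758). AC092143.1, which shares 21.4% of the MC1R exons on the same strand, differed by 0.72 (adjusted p = 0.0685) and -0.09 (adjusted p = 0.862), so reads of MC1R cannot be fully told apart from those of its neighbours.

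CREB1, the transcription factor at the end of the chain, did not pass the test with JQ1 in either genotype. Its values were 45.5, 43.6 and 46.7 CPM with DMSO and 44.8, 48.9 and 53.3 with JQ1 in wild-type libraries, and 41.8, 33.8 and 38.5 with DMSO and 46.5, 47.7 and 35 with JQ1 in knockout libraries. Replicate 3 of the knockout JQ1 group was the low value of its group and overlapped the DMSO range. The log2 differences of CREB1 were 0.11 (SE 0.11, approximate 95% interval -0.1 to 0.33; edgeR, adjusted p = 0.468) and 0.18 (SE 0.11, interval -0.04 to 0.39; adjusted p = 0.249). In the knockout CREB1 passed without knockout JQ1 replicate 3 (0.31, edgeR adjusted p = 0.0114) and with limma on the authors' normalized signal (0.57, adjusted p = 0.00787).

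Counted together, 5 of the 9 genes passed for JQ1 in wild-type cells (ADCY1 and MC1R higher, the 3 PDE4 genes lower), where 33.1% of all tested genes passed (16.9% higher and 16.2% lower). In knockout cells 5 of 9 passed (ADCY1 higher; ADCY9 and the 3 PDE4 genes lower), where 34.4% of tested genes passed (16.7% higher and 17.8% lower). The median log2 difference of the 9 genes was -0.21 in wild-type and -0.23 in knockout cells, beside -0.03 and 0 for all tested genes. With library totals as the only scaling the median of all genes was -0.16 and -0.12, and the calls of the 9 genes became 0 higher and 6 lower in wild-type and 1 higher and 6 lower in knockout cells, while those of all genes became 2298 higher and 5368 lower in wild-type (3665 and 3522 with TMM) and 2409 and 5250 in knockout cells (3616 and 3856). Without knockout JQ1 replicate 3 the calls numbered 7 in wild-type (2 higher, 5 lower) and 8 in knockout cells (2 higher, 6 lower). Over all genes that refit called 8455 in wild-type and 7481 in knockout cells, against 7187 and 7472 with all libraries. The wild-type count of the 9 genes fell to 2 when replicate 1 of either wild-type group was left out. It fell to 3 without replicate 3 of the DMSO group or replicate 2 of the JQ1 group. In these refits the wild-type count over all genes fell too, to between 5647 and 5848.

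Knockout and wild-type cells were next compared within each treatment. With DMSO 1 of the 9 passed, ADCY1, which was 1.32-fold lower in knockout cells (log2 -0.4, SE 0.11; edgeR, adjusted p = 0.0428), where 7.92% of all tested genes passed (3.47% higher and 4.44% lower). That call was lost in 10 of 19 alternatives, with adjusted p of up to 0.153; these were the replicate block (0.0709), limma on the authors' signal (0.0659), and leaving out any one of the 6 DMSO libraries (0.0657 to 0.153) or wild-type JQ1 replicate 1 (0.0582) or 2 (0.0609). PDE4D stood at -0.29 (SE 0.09; adjusted p = 0.0716), with its 3 knockout libraries below its 3 wild-type libraries, and passed without knockout JQ1 replicate 3 (adjusted p = 0.00964) or 1 (0.0376), without the filter on low counts (0.0294), with library totals alone (0.0461) and with only the compared groups in the fit (0.00767). CREB1 stood at -0.25 (SE 0.11; adjusted p = 0.214), also without overlap, and passed without knockout JQ1 replicate 3 (0.0443) and with only the compared groups (0.0423). The median of the 9 genes was -0.14, beside 0 for all tested genes.

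With JQ1 in both genotypes, 0 of the 9 genes passed in edgeR's test of knockout against wild type, where 8.57% of all tested genes passed (3.01% higher and 5.56% lower). DESeq2 and limma also called 0, and 1 gene, PDE4D, had an unadjusted p under 0.05 in edgeR. PDE4D stood at -0.25 (SE 0.1; adjusted p = 0.142) and passed without knockout JQ1 replicate 1 (-0.35, adjusted p = 0.037). ADCY1, lower in the knockout with DMSO, stood at -0.02 (SE 0.11; adjusted p = 0.947) with JQ1. The median of the 9 genes was -0.19, beside 0 for all tested genes, and these comparisons share their JQ1 libraries with the drug comparisons above.

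Levels of different genes can be ordered only per length of exon. In wild-type DMSO cells the order was ADCY6 at 8.18 ± 0.146 CPM per kilobase, ADCY3 at 5.63 ± 0.447, CREB1 at 4.73 ± 0.163, PDE4A at 3.25 ± 0.0838, PDE4D at 2.95 ± 0.0884, ADCY7 at 2.9 ± 0.0463, ADCY9 at 2.7 ± 0.188, MC1R at 2.46 ± 0.217, PDE4B at 1.44 ± 0.145 and ADCY1 at 0.746 ± 0.0378. Neighbours from PDE4D to MC1R lay within their spread of each other, and with the length of the longest coding transcript PDE4D moved ahead of PDE4A and MC1R ahead of ADCY9. In knockout JQ1 cells ADCY7 was last, at 0.68 ± 0.0274 CPM per kilobase, within the spread of PDE4B at 0.828 ± 0.234. ADCY6 was first in all 4 groups.

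The genes differed widely in how much they varied. Over the 12 libraries the SD of log2 CPM was 1.02 for ADCY7, 0.55 for PDE4A, 0.42 for PDE4B, 0.33 for ADCY1 and 0.27 for PDE4D, and between 0.17 and 0.21 for the other 5. The closest pair was ADCY3 and ADCY6, whose centred log2 profiles differed by a root mean square of 0.087. Among the other 9 genes PDE4A was closest to ADCY7, at 0.51. These distances describe 12 libraries that share their treatment and scaling.

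Profiles like that of ADCY7 were then looked for among the other tested genes. This search covered far more genes than the set above, so smaller distances are likely in any case, and the 2 are not compared. Of 15400 tested genes averaging 1 CPM or more, the 5 with the smallest root mean square difference from the centred log2 profile of ADCY7 were ZNF532 at 0.118, GALC at 0.125, TNNT1 at 0.137, MDK at 0.167 and CLMP at 0.172. ZNF532 encodes a zinc finger protein, GALC the lysosomal galactosylceramidase, TNNT1 the slow skeletal troponin T, MDK the growth factor midkine and CLMP an adhesion molecule of cell junctions. They were chosen for this likeness, so their values are a description. ZNF532 went from 115 ± 2.09 to 34.5 ± 2.3 CPM with JQ1 in wild-type cells and from 109 ± 4.8 to 23.7 ± 0.831 in the knockout, a log2 difference of -1.74 and -2.21. GALC differed by -1.83 and -2.41, TNNT1 by -1.47 and -2.26, MDK by -1.43 and -1.95, and CLMP by -1.6 and -1.86. In each of the 5 the JQ1 difference was larger in the knockout, by -0.47 (SE 0.09) for ZNF532, -0.58 (SE 0.15) for GALC, -0.79 (SE 0.16) for TNNT1, -0.52 (SE 0.13) for MDK and -0.26 (SE 0.11) for CLMP.

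**Figure D4:**
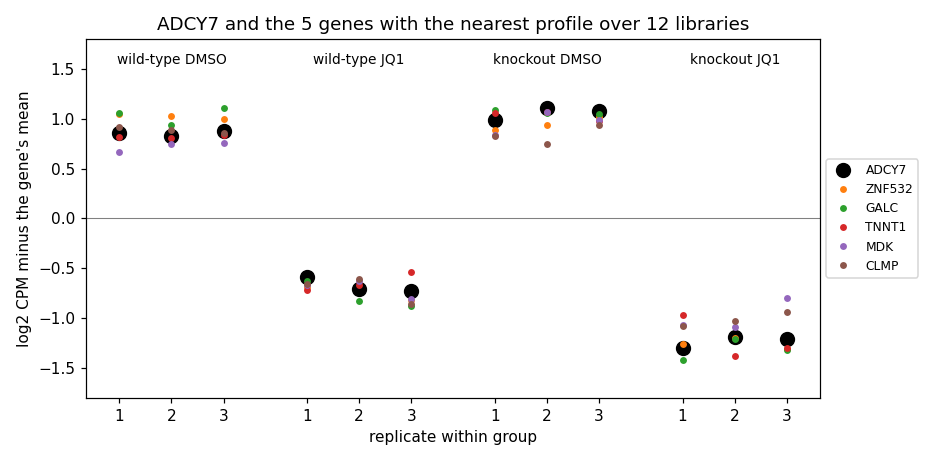
Log2 CPM of ADCY7 and of the 5 genes nearest to it, each centred on its own mean, in the 12 libraries. All 6 profiles are high with DMSO and low with JQ1, and their group means are lowest in the knockout JQ1 group.

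The wider pathway was read from a list of 72 other genes of cAMP signalling, of which 57 passed the filter on low counts. With JQ1, 14 were higher and 18 lower in wild-type cells and 14 higher and 16 lower in knockout cells, with medians of -0.04 and 0. Among all tested genes 16.9% were higher and 16.2% lower in wild-type cells, and 16.7% and 17.8% in knockout cells. Without knockout JQ1 replicate 3 the list held 16 higher and 20 lower in wild-type cells, and 12 higher and 19 lower in knockout cells. Over all genes that refit gave 4359 higher and 4096 lower in wild-type cells, and 3614 and 3867 in knockout cells. The largest changes by significance were in AKAP12, an anchoring protein that holds protein kinase A at the membrane, which fell from 1850 ± 35.2 to 394 ± 16.1 CPM in wild-type (log2 -2.23; edgeR, adjusted p = 3.68e-12) and from 1530 ± 64.4 to 317 ± 19 in knockout cells (log2 -2.27; adjusted p = 4.87e-12). NR4A2, a nuclear receptor gene induced by CREB, fell by 1.3 on the log2 scale in wild-type cells (adjusted p = 1.18e-08) and by 0.89 in the knockout (adjusted p = 5.48e-07). RAPGEF4, which encodes the cAMP-activated exchange factor EPAC2, fell from 5.67 ± 0.614 to 2.22 ± 0.223 CPM in wild-type cells (log2 -1.35; adjusted p = 6.82e-06) and from 10.2 ± 0.394 to 2.23 ± 0.442 in the knockout (log2 -2.2; adjusted p = 4.33e-08). These calls held in all 19 alternatives.

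Of the 13 other phosphodiesterase genes that act on cAMP, 11 were tested, and with JQ1 0 passed higher and 6 passed lower in wild-type cells (median -0.57), and 0 higher and 4 lower in knockout cells (median -0.32). Of all tested genes 16.2% passed lower in wild-type and 17.8% in knockout cells, and 33.1% and 34.4% in either direction, and nothing particular to this class is read from its counts. PDE3A, a phosphodiesterase inhibited by cGMP, fell from 101 ± 3.99 to 27.3 ± 0.229 CPM in wild-type (log2 -1.89; edgeR, adjusted p = 1.76e-09) and from 114 ± 6.13 to 26.4 ± 4.06 in knockout cells (log2 -2.12; adjusted p = 6.38e-10). PDE1C, activated by calcium and calmodulin, fell by 0.44 on the log2 scale in wild-type cells (adjusted p = 0.000601) and by 0.78 in the knockout (adjusted p = 3.14e-06). Among genes picked after their values were seen, the cAMP-specific PDE7B fell by 1.43 (adjusted p = 3.14e-05) and by 1.82 (adjusted p = 4.24e-06), and PDE8B by 0.57 (adjusted p = 0.0135) and by 0.69 (adjusted p = 0.0048). PDE7A, PDE8A and PDE10A lay between -0.1 and 0.13 in both genotypes and did not pass.

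Calls in the other classes with more than 1 tested gene went in both directions. They are to be read against the 33.1% of all tested genes called in wild-type and 34.4% in knockout cells. Only the class of CREB family members, coactivators and SIK kinases is near those shares in both genotypes. The classes are small, and nothing particular to any of them is read from its counts. Of 9 protein kinase A subunits and inhibitors, 4 were higher and 2 lower in wild-type and 5 higher and 2 lower in knockout cells with JQ1; PRKACB, a catalytic subunit, stood at 0.07 in wild-type cells (edgeR, adjusted p = 0.49) and rose by 0.44 in the knockout (adjusted p = 0.000456), a call lost with limma on the authors' signal, where it was 0.09 (adjusted p = 0.654). Of 8 anchoring proteins and EPAC factors, 1 was higher and 3 lower in wild-type, and 1 higher and 4 lower in knockout cells. Of 10 CREB family members, coactivators and SIK kinases, 2 were higher and 2 lower, then 1 and 2. Of 12 receptors and ligands only 6 could be tested, with 3 higher and 2 lower, then 3 and 1, and of 5 G protein alpha subunits 2 were higher and 2 lower, then 1 and 2. Of 7 tested CREB target genes 2 were higher and 1 lower in wild-type and 3 higher and 1 lower in knockout cells. ADCY5 alone of the 5 other cyclases could be tested and did not pass.

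Between genotypes the pathway list held 3 genes higher and 6 lower in the knockout with DMSO (median -0.05) and 3 higher and 4 lower with JQ1 (median -0.11), of 57 tested, where 7.92% and 8.57% of all tested genes passed. NR4A2 was at 29.7 ± 0.716 CPM in wild-type and 19.4 ± 1.39 in knockout DMSO cells (log2 -0.61; edgeR, adjusted p = 7.23e-05). RAPGEF4 was higher in the knockout with DMSO (0.84, adjusted p = 0.000909), and PRKACB lower (-0.47, adjusted p = 0.00108), the latter not passing with limma on the authors' signal (adjusted p = 0.115). With JQ1, PDE3B, the close relative of PDE3A, was 2.23-fold higher in the knockout, at 2.82 ± 0.241 against 1.25 ± 0.169 CPM (log2 1.16; adjusted p = 9e-04), PDE1C was 1.4-fold lower (log2 -0.48; adjusted p = 0.00134) and AKAP12 1.24-fold lower (log2 -0.31; adjusted p = 0.0016). PDE3B rested on 31 to 49 counts per wild-type JQ1 library. Both PDE3B and AKAP12 also passed with DMSO, at 0.86 (edgeR, adjusted p = 0.00477) and -0.27 (adjusted p = 0.00449). The PDE3B call with DMSO was lost with limma on the authors' signal (adjusted p = 0.0557). PDE1C did not pass with DMSO (-0.14, edgeR adjusted p = 0.384). The differences between the JQ1 responses, not tested, were 0.3 (SE 0.25) for PDE3B, -0.04 (SE 0.08) for AKAP12 and -0.34 (SE 0.11) for PDE1C. Without knockout JQ1 replicate 3 the list held 16 calls with DMSO (10 higher, 6 lower) and 12 with JQ1 (3 higher, 9 lower). Over all genes that refit gave 1276 higher and 1374 lower with DMSO, and 850 and 1481 with JQ1. With only the compared groups in the fit the DMSO calls of the list were also 10 higher and 6 lower. Those of all genes were 1311 higher and 1308 lower, against 754 and 964 in the main fit. The balance of directions with DMSO thus depended on the fit over all genes too, and nothing particular to the list is read from it.

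**Figure D5:**
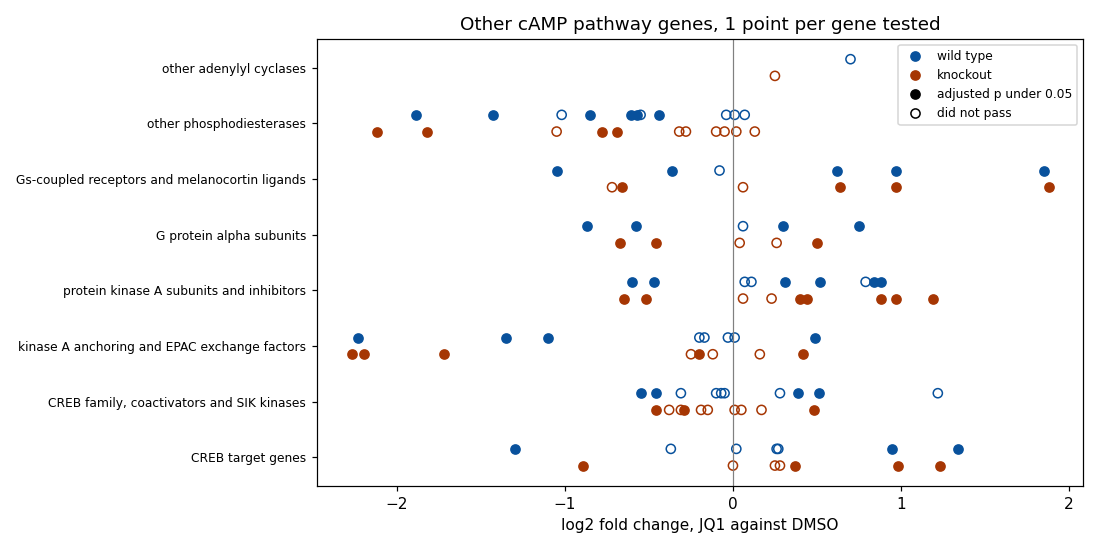
Log2 fold change with JQ1 of the tested genes of the pathway list by class, with 1 point per gene and genotype, filled where the adjusted p was under 0.05. The other phosphodiesterases lie at or below 0 except for small positive values of up to 0.13, ADCY5, the only other cyclase tested, lies above 0, and the remaining classes spread to both sides.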

How the data were processed

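RNA was measured by sequencing in 12 libraries. The authors deposited estimated counts per gene symbol, which were rounded to whole numbers here, and a normalized signal, which equals the count divided by a factor specific to gene and library and was used only as an alternative. Trim Galore, cutadapt, FastQC, MultiQC, kallisto, DESeq2 and the build GRCh38.p10 are named, without roles, per the submitters' processing notes; strand use and annotation are not given in the sources used here. Columns were matched to samples by name and samples to groups by their genotype and treatment labels.

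Low counts were filtered with filterByExpr, leaving 21698 genes with 99.9% of the counts. TMM factors ran from 0.926 to 1.06. All 12 libraries were fitted with a term per group by edgeR's two-sided quasi-likelihood test (edgeR 4.0.16, limma 3.58.1, DESeq2 1.42.0, R 4.3.3), with Benjamini-Hochberg adjustment over all tested genes and a threshold of 0.05. The fit was tested on simulated data. SEs are the log2 difference divided by the root of F. Depth sets the precision: counting error is largest for genes with few counts.

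The genes and lists were chosen with earlier results of these data known. Named are the 10 genes, MAPKAPK2, the 3 pathway genes with the smallest adjusted p under 0.05 per contrast, and the 5 genes nearest to ADCY7 in centred log2 CPM (prior count 2, genes averaging 1 CPM or more); others were chosen after their values were seen. Gene positions and exon lengths are from GENCODE 29. Alternatives were other scalings, no filter, DESeq2, limma on log2 of the signal plus 1, only the compared groups, a replicate block, a threshold of 0.01 and each library left out.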

Additional observations from a re-analysis of the deposited data

Results flagged for a closer look

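The JQ1 response of ADCY7 differed between the genotypes: the log2 difference, knockout minus wild type, was -0.76, with a larger fall in the knockout. It is listed because the test of that difference passed across all genes, and it is also the contrast by which ADCY7 was chosen, so it is no independent evidence.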

How the results depend on the processing

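No log2 difference of the 10 genes that was called changed sign under any of the 19 alternatives run for single genes. Of the 9 genes tested, the calls with JQ1 numbered 5 in wild-type cells (2 at an adjusted p of 0.01; 2 to 7 with single libraries left out) and 5 in knockout cells (4 to 8). For knockout against wild type with DMSO the count was 1, and it was 0 at 0.01, 2 with library totals alone, 2 without the filter, 3 with only the compared groups, 0 with limma on the authors' signal and 0 to 3 with libraries left out; with JQ1 it was 0 (0 to 1). Over all genes the counts were 7187 for JQ1 in wild-type cells (4781 at 0.01; 5647 to 8455 with libraries left out), 7472 in knockout cells (6286 to 7481), 1718 between genotypes with DMSO (926 at 0.01; 2619 with only the compared groups; 1092 to 2650) and 1860 with JQ1 (965; 922; 1223 to 2331). The highest count between genotypes with DMSO, 2650, came without knockout JQ1 replicate 3. In the pathway list the counts were 32 and 30 for JQ1 (26 to 36 and 25 to 31 with libraries left out), 9 between genotypes with DMSO (16 with only the compared groups; 7 to 16) and 7 with JQ1 (3 at 0.01; 4 with only the compared groups; 4 to 12); the alternatives for this list were chosen after seeing the data. The cause of these shifts was not tested. Estimated counts of symbols with overlapping exons, few counts (PDE4B 171 to 468, ADCY7 147 to 924 per library) and 3 replicates per group limit the precision.

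Same-numbered replicates did not deviate together: of 18 pairs across groups 0 had a correlation of deviations over 0.1 (-0.11 to 0.08), and 1 of 12 samples correlated best with its own number. With the replicate block the calls among the 9 genes were 5 and 5 for JQ1, 0 between genotypes with DMSO and 0 with JQ1, and over all genes 6789, 7136, 1487 and 1569.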

Other observations

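The authors' normalized signal divides each count by a factor that differs between genes as well as libraries. Relative to the median of its library, the factor of CREB1 varied 1.47-fold over the 12 libraries and that of ADCY1 1.43-fold, against a median of 1.03-fold over 20988 genes; for PDE4D the value was 1.23 and for ADCY7 1.17. For CREB1 the mean relative factor was 1.12 with DMSO and 0.963 with JQ1 in wild-type libraries, and 1.11 with DMSO and 0.844 with JQ1 in knockout libraries. The mean CREB1 signal was 1200 ± 67.1, 1550 ± 274, 1040 ± 185 and 1540 ± 243 in the same order (SD, n = 3 each), and its treatments lay further apart, as a ratio, in the signal than in CPM.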
